A study of Mus musculus with 7 samples.

Results

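The Ago2 mutants K566A and R792A_C793A were set directly against each other by the miRNAs that came down with them. One library stands on each side, so the comparison uses 2 of the 7 libraries of the series. It was chosen by genotype label alone, and the wild-type library was left out. All 959 mature miRNA names of the deposited table were considered, each counted once by its highest locus. Of these, 366 had a mean of at least 10 counts per 1000000 (CPM) over both libraries and are called tested below.

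Both libraries were made from mouse embryonic stem cells on an Ago-null background, grown on gelatin with serum and leukemia inhibitory factor. The cells carried Flag-tagged Ago2 with either the single change K566A or the double change R792A and C793A, and bound small RNAs were collected with an anti-Flag antibody. The counts do not show the mutations, so they cannot serve as a check of the labels. The 3 further mutants, Q548A, GKT_GKGT and PGKTP_AAAAA, and an empty control, each with 1 library, are used below only to place values. The labels do not say whether a library came from 1 clone or from a pool of cells. Each genotype has 1 library, so the differences are between single libraries and were not checked in replicates.

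Argonaute proteins hold 1 strand of a small-RNA duplex as a guide and discard the other. The 5′ end of the guide is anchored in a pocket of the MID domain, where K566 lies, and the neighbouring PIWI domain, where R792 and C793 lie, touches the guide close to that end. A miRNA hairpin yields a duplex of a 5p and a 3p arm, and the arm kept more often is called its major arm. In mouse embryonic stem cells the miR-290 cluster is the main source of miRNAs, several of which share the AAGUGCU seed of the miR-302 family.

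The mature sequences of the miRNAs on which the comparison turns are given from RefSeq's table of build GRCm38.p6, with the seed (bases 2 to 8) in capitals. The first set holds arms of miR-290 cluster hairpins that moved apart, with a miR-302 member that shares a seed with them.
miR-290-5p: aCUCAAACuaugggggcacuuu
miR-292-5p: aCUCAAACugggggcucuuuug
miR-293-5p: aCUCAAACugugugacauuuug
miR-290-3p: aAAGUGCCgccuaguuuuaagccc
miR-293-3p: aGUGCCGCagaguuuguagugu
miR-294-3p: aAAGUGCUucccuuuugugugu
miR-302b-3p: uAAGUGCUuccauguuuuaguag
The 3 5p arms share the seed CUCAAAC and all were lower in K566A. miR-294-3p and miR-302b-3p share the seed AAGUGCU and both were higher, miR-294-3p with total-count scaling only. Of the 5 tested miRNAs with that seed 4 were higher with total-count scaling. The other, miR-291a-3p, had a log2 ratio of 0.20 and was called neither higher nor lower. The second set holds miRNAs among those with the largest ratios at a mean of at least 100 CPM, the higher ones first.
miR-92a-2-5p: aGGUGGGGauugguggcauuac
miR-30c-1-3p: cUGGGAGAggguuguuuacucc
miR-365-2-5p: aGGGACUUucaggggcagcugug
miR-125a-3p: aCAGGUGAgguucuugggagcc
miR-149-5p: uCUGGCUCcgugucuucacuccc
miR-323-3p: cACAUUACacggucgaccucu
miR-411-3p: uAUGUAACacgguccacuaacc
miR-674-3p: cACAGCUCccaucucagaacaa
miR-744-5p: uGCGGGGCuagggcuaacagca
The third set holds miRNAs that share a seed (AUUGCAC, then ACCCGUA) but went opposite ways, miR-92b-3p and miR-99b-5p being lower in K566A and the others higher.
miR-25-3p: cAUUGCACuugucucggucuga
miR-367-3p: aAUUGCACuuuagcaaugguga
miR-92b-3p: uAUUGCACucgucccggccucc
miR-99a-5p: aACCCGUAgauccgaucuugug
miR-99b-5p: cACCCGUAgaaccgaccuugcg
A pair of let-7 members stands for the seed GAGGUAG, whose 9 tested members were all higher in K566A with total-count scaling.
let-7a-5p: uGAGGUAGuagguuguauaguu
let-7i-5p: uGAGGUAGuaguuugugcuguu

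The K566A library held 14917453 counts and the R792A_C793A library 56076261 counts, 3.76 times as many. A count was present for 694 names in K566A and for 781 names in R792A_C793A, while 165 names were at 0 in both. The limit for a name at 0, taken as 3 counts, was 0.201 CPM in K566A and 0.0535 CPM in R792A_C793A. Reads carry no molecular identifiers, so these limits and all intervals cover counting error only. The empty control held 33468 counts, so the K566A total was 446 times and the R792A_C793A total 1676 times that of the control.

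A miRNA was called higher or lower in K566A when the exact 95% interval of its CPM ratio lay wholly above 2 or wholly below 0.5. Of the 366 tested miRNAs, 158 were higher (43.2%) and 63 were lower (17.2%), or 60.4% called in either direction, and the median log2 ratio of K566A over R792A_C793A was 0.88 (quartiles -0.58 and 1.74). The median lies above 0 while miR-292-5p alone took 21.7% of all counts in K566A (95% interval 21.68 to 21.72) and 57.3% in R792A_C793A. With median-of-ratios scaling every log2 ratio is 0.59 lower, and 98 miRNAs were higher (26.8%) and 96 were lower (26.2%). The 3 other scalings tried each lower every log2 ratio, by 0.59 to 0.87, so only higher calls could be lost under them, and 58 of the 158 higher calls held under all 4. Medians of lists and of first-base groups are therefore given relative to 0.88, and their counts with median-of-ratios scaling follow in brackets. Medians by base composition, arm and length are plain log2 ratios, to be read beside 0.88, and their counts are for total-count scaling only. Across the 366 miRNAs the Spearman correlation between both libraries was 0.79, a description over miRNAs that share 2 libraries.

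**Figure D1:**
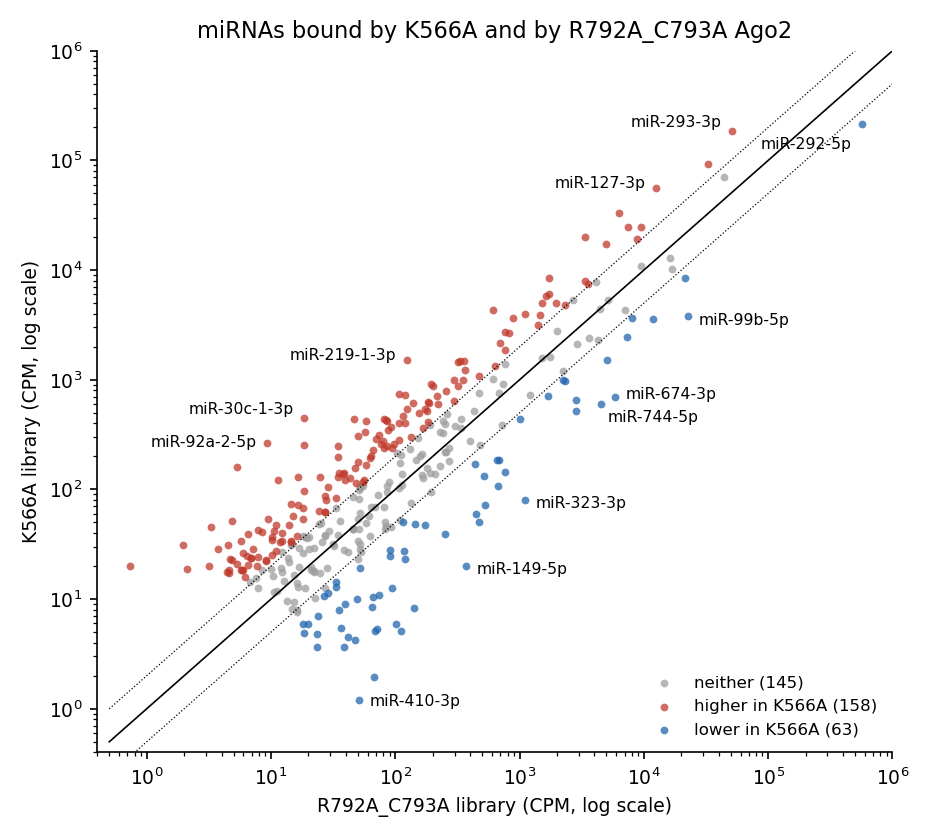
Each point is 1 of the 366 tested miRNAs, with CPM in K566A on the y axis and CPM in R792A_C793A on the x axis, both on log scales; the solid line marks equal CPM and the dotted lines ratios of 2 and 0.5. The 158 higher miRNAs lie above the line and the 63 lower ones below it, and miR-292-5p, the most abundant, lies below the line while miR-293-3p lies above it.

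Members of the miR-290 cluster went both ways. Of its 14 names 13 were tested, and 5 were higher and 3 lower (2 and 4), beside 43.2% and 17.2% of all tested miRNAs. miR-292-5p (chromosome 7, 3219201 to 3219222) had 217022 CPM in K566A and 572843 CPM in R792A_C793A, a log2 ratio of -1.40 (95% interval -1.402 to -1.399). miR-293-5p (3220357 to 3220378) had 2475 CPM in K566A and 7369 CPM in R792A_C793A, a log2 ratio of -1.57. miR-290-5p was at 3653 CPM in K566A and 8020 CPM in R792A_C793A, a log2 ratio of -1.13. These are the 3 tested miRNAs with the CUCAAAC seed. The higher members were miR-293-3p, miR-294-3p, miR-290-3p, miR-295-3p and, as the only 5p arm among them, miR-291b-5p.

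The most abundant of these, miR-293-3p, had 183838 CPM in K566A and 50991 CPM in R792A_C793A, a log2 ratio of 1.85, and was the next most abundant miRNA after miR-292-5p in both. miR-294-3p, whose seed family is known for promoting the cell cycle of embryonic stem cells, had 92661 CPM in K566A and 32611 CPM in R792A_C793A, a log2 ratio of 1.51. It was called with total-count scaling but under none of the other 3 scalings, and miR-293-3p was not called once miR-292-5p was left out of the totals. miR-292-3p (70210 CPM in K566A and 43893 CPM in R792A_C793A) and miR-291a-3p (10942 CPM in K566A and 9534 CPM in R792A_C793A) passed neither limit. In the empty control miR-292-5p had 21944 counts and miR-293-3p 1842 counts.

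Shares within a hairpin do not depend on library scaling. The 5p arm took a smaller share of the hairpin in K566A in 6 of 7 miR-290 cluster hairpins, beside 52.5% of all 366 hairpins tested. In 4 of the 6 the odds ratio passed the limits, beside 20.8% of all hairpins tested called with a lower 5p share. The exception was miR-291b, whose 5p arm made up 99.2% in K566A (9576 counts beside 76 of 3p) and 97.9% in R792A_C793A (16638 beside 355). Its log2 odds of the minor 3p arm changed by -1.43, a call that was lost with R792A_C793A thinned to the K566A total. For miR-292 (3219201 to 3219262) the 5p arm made up 75.6% of the counts in K566A and 92.9% in R792A_C793A. This is 3.09 counts of 5p per count of 3p in K566A, and 13.1 in R792A_C793A. For miR-290 the 5p arm made up 83.6% in K566A and 97.4% in R792A_C793A, and for miR-293 1.33% in K566A and 12.6% in R792A_C793A. The log2 odds of the minor arm changed by 2.08 for miR-292, by 2.86 for miR-290 and by -3.42 for miR-293. In miR-292 and miR-290 the minor arm is 3p, and in miR-293 it is 5p, so all 3 changes run towards 3p.

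The 5p share of miR-294 was 0.148% in K566A and 0.349% in R792A_C793A and was called. The shares of miR-291a (16.2% in K566A and 23.4% in R792A_C793A) and miR-295 (0.714% in K566A and 1.38% in R792A_C793A) fell within the limits. Among the other mutants the 5p share of miR-292 lay between 96.5% and 98.1%, and that of miR-293 between 6.63% and 16.3%. K566A lay below all 3 of them in both hairpins, while R792A_C793A lay inside their range for miR-293 and below it for miR-292. For miR-290 the other mutants ran from 87.8% (GKT_GKGT) to 97.3% (Q548A). K566A, at 83.6%, lay below them and R792A_C793A, at 97.4%, just above. For miR-291a the other mutants ran from 39.996% (Q548A) to 93.5% (GKT_GKGT), so both libraries compared here lay below them.

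**Figure D2:**
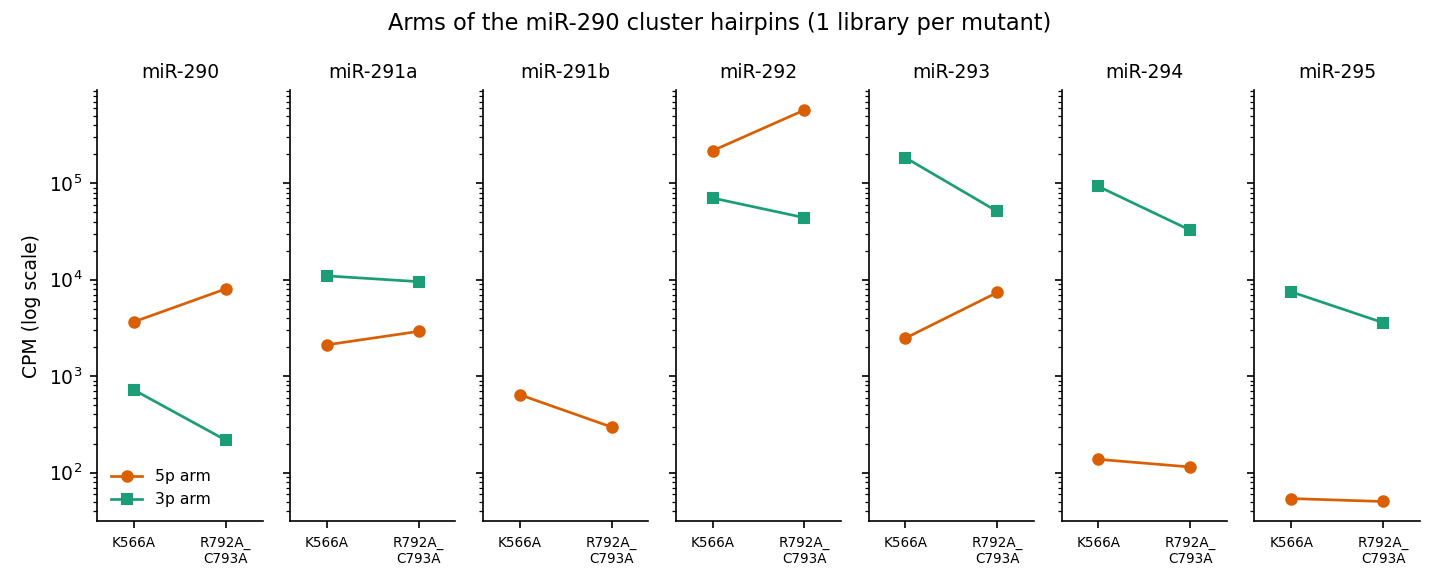
CPM on a log scale of the 5p arm (circles) and the 3p arm (squares) of each miR-290 cluster hairpin, with K566A left of R792A_C793A; miR-291b-3p was not tested and has no point. The circles of miR-290, miR-292 and miR-293 lie lower in K566A than in R792A_C793A, and their squares lie higher.

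The miRNAs highest in K566A relative to R792A_C793A were of low to moderate abundance in R792A_C793A, at 9.36 to 610 CPM for the 10 largest rises. miR-92a-2-5p, from the miR-106a-363 paralog of the miR-17-92 cluster, had 268 CPM in K566A and 9.36 CPM in R792A_C793A, a log2 ratio of 4.84 (95% interval 4.71 to 4.97). miR-30c-1-3p (chromosome 4, 120442151 to 120442172) had 446 CPM in K566A and 18.4 CPM in R792A_C793A, a log2 ratio of 4.60 (4.50 to 4.70). miR-365-2-5p was at 256 CPM in K566A and 18.5 CPM in R792A_C793A, a log2 ratio of 3.79. These ratios were called under all 4 scalings. In the control these 3 miRNAs had 2, 0 and 0 counts, below its limit of 3 counts (89.6 CPM). The control is therefore too shallow to show background at their level in R792A_C793A.

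miR-219-1-3p had 1522 CPM in K566A and 123 CPM in R792A_C793A, a log2 ratio of 3.63, and miR-125a-3p had 440 CPM in K566A and 46.6 CPM in R792A_C793A, a log2 ratio of 3.24. The other mutants held 77.2 to 88.8 CPM of miR-219-1-3p, so K566A stood apart from all of them. The remaining 5 of the 10 largest rises were miR-363-5p (2.84), miR-302a-3p (2.84), miR-302b-3p (2.81), miR-302d-3p (2.80) and miR-671-3p (2.61). Below the limit of 100 CPM, miR-455-5p had the highest ratio of all tested miRNAs, with 159 CPM in K566A and 5.33 CPM in R792A_C793A, a log2 ratio of 4.90. It passed the mean of 10 CPM only through K566A.

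Among the miRNAs lowest in K566A, miR-149-5p (chromosome 1, 94746958 to 94746980) had 20.2 CPM in K566A and 369 CPM in R792A_C793A, a log2 ratio of -4.19 (-4.36 to -4.03). miR-323-3p, of the imprinted Dlk1-Dio3 cluster on chromosome 12, had 79.97 CPM in K566A and 1110 CPM in R792A_C793A, a log2 ratio of -3.80. The abundant members of this group were miR-674-3p, with 694 CPM in K566A and 5881 CPM in R792A_C793A (-3.08), miR-744-5p, with 606 CPM in K566A and 4558 CPM in R792A_C793A (-2.91), and miR-99b-5p, with 3779 CPM in K566A and 22825 CPM in R792A_C793A (-2.59). The other 5 of the 10 largest falls were miR-411-3p (-3.22), miR-351-5p (-2.89), miR-770-3p (-2.88), miR-382-5p (-2.69) and miR-328-3p (-2.62). Of these 5, miR-411-3p, miR-770-3p and miR-382-5p also belong to the Dlk1-Dio3 cluster. Among the falls, miR-149-5p, miR-323-3p, miR-411-3p, miR-351-5p, miR-770-3p and miR-382-5p passed the mean of 100 CPM only through R792A_C793A.

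Beyond the miR-290 cluster, abundant miRNAs went both ways. miR-127-3p had 56004 CPM in K566A and 12522 CPM in R792A_C793A (2.16), miR-148a-3p 33326 CPM in K566A and 6271 CPM in R792A_C793A (2.41), and miR-128-3p 24572 CPM in K566A and 7432 CPM in R792A_C793A (1.73). miR-25-3p, of the miR-106b-25 cluster, had 19991 CPM in K566A and 3372 CPM in R792A_C793A (2.57). In contrast miR-183-5p had 8447 CPM in K566A and 21542 CPM in R792A_C793A (-1.35). miR-433-3p (-0.71) and miR-191-5p (-0.32) passed neither limit.

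The calls were set beside the range of the other 3 mutant libraries, by total-count CPM only. miR-292-5p took 65.3% of the counts in Q548A, 70.5% in GKT_GKGT and 69.5% in PGKTP_AAAAA, against 57.3% in R792A_C793A. Places without it in the totals were not tested. Of the 158 higher miRNAs, K566A lay above all 3 in 150 and R792A_C793A lay above all 3 in 83, inside their range in 67 and below it in 8. Over all 366 tested miRNAs K566A lay above all 3 in 64.2% and R792A_C793A in 54.4%. Choosing miRNAs that are high in K566A favours a high place of K566A, so the 150 are a description. Of the 63 lower miRNAs, K566A lay below all 3 in 41 and inside their range in 22. R792A_C793A lay above all 3 in 27 and inside in 31. Over all 366 tested miRNAs K566A lay below all 3 in 13.9% and inside in 21.9%, and R792A_C793A inside in 39.6%. Choosing miRNAs that are low in K566A likewise favours a low place of K566A, so the 41 are a description too. By total-count CPM both stood apart for miR-99b-5p. It had 3779 CPM in K566A, 22825 CPM in R792A_C793A and 12963 to 16789 CPM in the others. K566A also had the lowest total of the mutant libraries. With R792A_C793A thinned to the K566A total, 151 miRNAs were higher and 64 lower.

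Grouped by cluster and family, the cluster of miR-302 with miR-367 lay highest. It is expressed with the miR-290 cluster in pluripotent cells, and 4 of its 10 names were tested. All 4 were higher (4 and 0), with a median 1.94 log2 units above that of all miRNAs. miR-302b-3p had 4285 CPM in K566A and 610 CPM in R792A_C793A, and miR-367-3p 18.7 CPM in K566A and 2.10 CPM in R792A_C793A. The tested log2 ratios ran from 2.80 to 3.15. miR-367-3p passed the abundance filter only through K566A, and the untested miR-302c-3p had 4.56 CPM in K566A and 1.84 CPM in R792A_C793A, a log2 ratio of 1.31.

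Of 24 tested members of miR-17-92 and its paralogs, known as growth-promoting miRNAs, 17 were higher and 1 lower (12 and 1), with a relative median of 0.74. Abundant members were miR-363-3p (1.26), miR-20a-5p (1.83) and miR-92a-3p (1.35), beside miR-25-3p. miR-363-3p and miR-92a-3p were called with total-count scaling only. The exception was miR-92b-3p, with 1516 CPM in K566A and 5063 CPM in R792A_C793A (-1.74). It has the AUUGCAC seed of miR-25-3p and miR-92a-3p, and across the 6 miRNAs with that seed the log2 ratios ran from -1.74 to 3.15 (miR-367-3p).

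Let-7 and miR-98, which are known to rise as stem cells differentiate, had 12 of 13 tested names higher and 0 lower (10 and 0), with a relative median of 1.10. let-7a-5p had 434 CPM in K566A and 84.8 CPM in R792A_C793A (2.35), and let-7f-5p 438 CPM in K566A and 80.6 CPM in R792A_C793A (2.44). All 9 with the GAGGUAG seed were higher, between 1.78 and 2.58. let-7d-3p (0.81) passed neither limit. Some of the higher names passed the abundance filter only through K566A, among them let-7e-3p, with 31.2 CPM in K566A and 4.48 CPM in R792A_C793A. Near-identical family members can share reads, so their separate values are uncertain.

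The miR-15/16 family had 8 of 10 tested names higher and 0 lower (5 and 1), with a relative median of 0.94. Both arms took part, with miR-16-5p at 1.65 (called with total-count scaling only) and miR-16-1-3p at 2.96. Of 10 miR-34 names, known as p53 targets, 3 were tested and all 3 were higher (3 and 0). miR-34c-5p was at 195.8 CPM in K566A and 34.6 CPM in R792A_C793A (2.50). miR-34b-5p, with 33.9 CPM in K566A and 5.78 CPM in R792A_C793A, passed the abundance filter only through K566A. Without miR-292-5p in the totals 2 of the 3 were higher. Of the families of miR-130 and miR-148 with their relatives miR-301 and miR-152, 8 of 12 were higher (66.7%) and 1 lower (3 and 1), beside 43.2% higher over all tested miRNAs. With median-of-ratios scaling 25% of them were higher, beside 26.8% of all. The lower one, miR-148b-5p (-1.44), is the other arm of miR-148b-3p (1.75).

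By the median of its members, the Dlk1-Dio3 cluster, a large imprinted array of miRNAs, lay low. Of 112 names 61 were tested, and 14 were higher and 22 lower (10 and 30), and the relative median was -1.25. miR-543-3p had 3604 CPM in K566A and 11832 CPM in R792A_C793A (-1.72). miR-410-3p had the lowest ratio of all tested miRNAs, with 1.21 CPM in K566A and 51.1 CPM in R792A_C793A (-5.40), from 18 and 2865 counts. It passed the abundance filter only through R792A_C793A. At the other end, miR-127-3p, the most abundant member of the cluster, was higher under all 4 scalings (2.16). miR-541-5p had 24969 CPM in K566A and 9566 CPM in R792A_C793A (1.38, called with total-count scaling only), and miR-3544-3p reached 3.79. The summed CPM of the tested members was 124983 in K566A and 84396 in R792A_C793A, so the sum ran opposite to the median. miR-3544-3p overlaps another locus, so its value is uncertain. Of 20 tested members of the Sfmbt2 cluster, which lies in an intron of that gene, 13 were higher (65%) and 1 lower (3 and 1). Over all tested miRNAs 43.2% were higher. With median-of-ratios scaling 15% of the cluster were higher, beside 26.8% of all. Without miR-292-5p in the totals 1 member was higher and 2 lower, so the place of this cluster depended on the scaling.

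Other families lay low or split. Of 8 tested miR-23/27/24 names, 2 were higher and 4 lower (2 and 5), with a relative median of -1.84. miR-27a-3p had 2658 CPM in K566A and 815 CPM in R792A_C793A (1.71), but miR-24-3p, from the same clusters, had 987 CPM in K566A and 2243 CPM in R792A_C793A (-1.18). miR-24-3p overlaps another locus and is uncertain. The Dicer- or Drosha-independent miRNAs, which bypass a step of the usual processing, had 0 of 4 higher and 2 lower (0 and 3), with miR-1981-5p at -1.24 and miR-877-3p at -2.11.

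The miR-30 family had 3 of 10 higher and 1 lower (3 and 3), and its arms differed. The 3 higher were the 3p names miR-30c-1-3p (4.60), miR-30b-3p (2.35) and miR-30c-2-3p (2.23), and the lower one was miR-30d-5p (-2.42). miR-99/100 with miR-125 had 4 of 8 higher and 1 lower (3 and 2), from miR-99b-5p to miR-125a-3p. With the seed it shares with miR-99b-5p, miR-99a-5p was at 1.92 and miR-100-5p at 0.09. The cluster of miR-183, miR-96 and miR-182 had 1 of 6 higher, miR-96-5p (1.29, with total-count scaling only), and 1 lower, miR-183-5p (0 and 2).

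The remaining lists are given beside the shares over all tested miRNAs, 43.2% higher and 17.2% lower (26.8% and 26.2%). The miR-200 family had 2 of 7 higher and 1 lower (1 and 1), the miR-10 and miR-196a families 2 of 4 and 0 (1 and 0), the miR-181 family 0 of 3 and 0 (0 and 2), and the list of miR-191, miR-425, miR-103 and miR-107 0 of 5 and 1 (0 and 1). Among 27 tested miRNAs numbered 1000 and above, annotated later, 5 were higher and 6 lower (3 and 11).

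Markers of other cell types were also present. Of 9 tested fibroblast markers 6 were higher and 0 lower (4 and 0), beside 43.2% higher over all tested miRNAs, and their summed CPM was 9420 in K566A and 3137 in R792A_C793A. miR-143-3p had 3967 CPM in K566A and 1107 CPM in R792A_C793A, and miR-21-5p 618 CPM in K566A and 138 CPM in R792A_C793A. Others of the list passed neither limit, among them miR-199a-5p, with 9.65 CPM in K566A and 13.5 CPM in R792A_C793A (-0.48), and miR-196a-1-3p (-0.21). Of 11 tested markers of differentiated tissues 8 were higher and 1 lower (4 and 1), with a summed CPM of 26988 in K566A and 8376 in R792A_C793A, most of it from miR-128-3p. Without miR-292-5p in the totals 3 fibroblast markers were higher and 2 lower, and of the markers of differentiated tissues 1 was higher and 1 lower. Each of these lists has 23 names. miR-223-3p was at 0 in both libraries, while miR-214-3p was at 0 in K566A and had 5 counts in R792A_C793A. The untested fibroblast marker miR-145-5p was far lower in K566A, with 2 counts beside 513 counts in R792A_C793A, whereas miR-145-3p was at 3.43. In bulk libraries fewer cells of a type and less RNA per cell cannot be told apart, and the part of these markers in the other differences was not tested. The miR-290 cluster, the defining list of embryonic stem cells, summed to 591942 CPM in K566A and 732431 CPM in R792A_C793A.

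**Figure D3:**
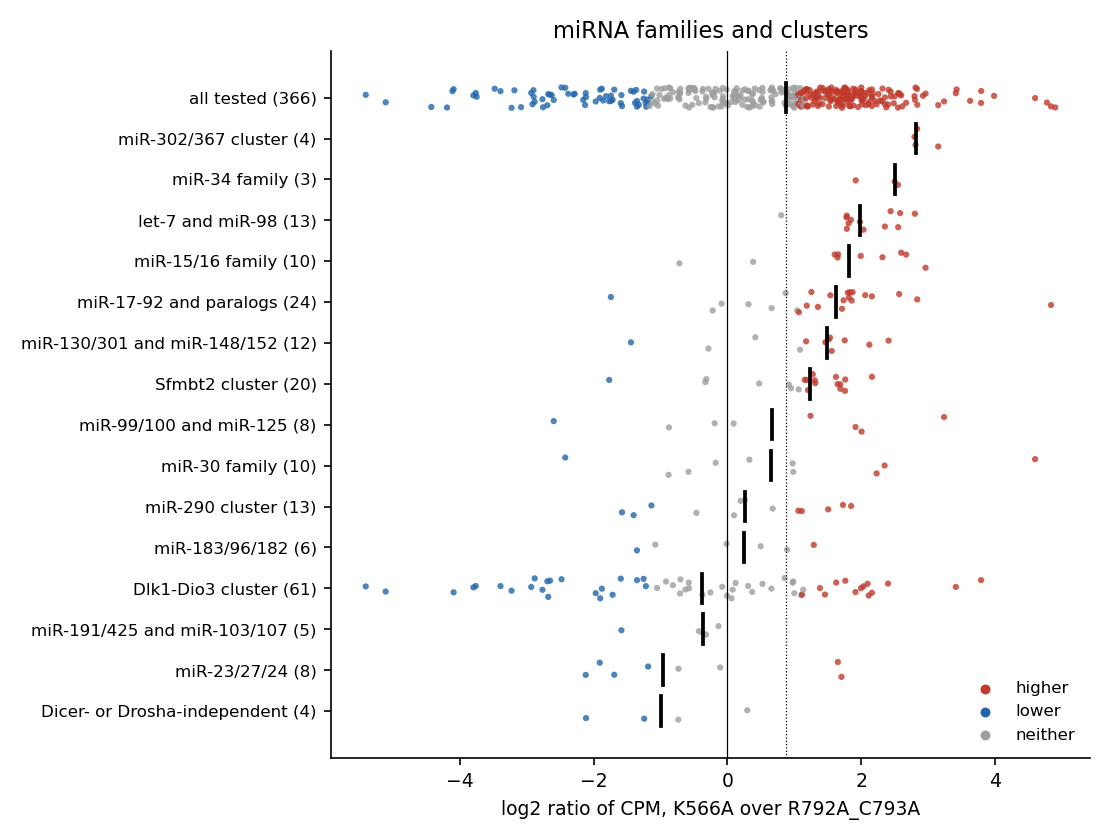
Log2 ratio of CPM, K566A over R792A_C793A, of each tested miRNA, with all tested miRNAs in the top row and lists ordered by their median below it; black bars are medians, the dotted line is the median of all (0.88), and colours mark the calls. The 4 tested miR-302 and miR-367 names run from 2.80 to 3.15, and the Dlk1-Dio3 members run from -5.40 to 3.79.

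By first base, read for 306 of the tested miRNAs, guanosine stood lowest. Of 25 miRNAs beginning with G 2 were higher and 9 lower (0 and 12), and the relative median was -1.41. Of 134 beginning with U 62 were higher and 26 lower (39 and 36), of 87 beginning with A 35 and 14 (25 and 24), and of 60 beginning with C 29 and 7 (20 and 13). The relative median was 0.09 for U, -0.22 for A and 0.21 for C. Among abundant G-first miRNAs, miR-298-5p had 649 CPM in K566A and 2831 CPM in R792A_C793A (-2.13), while miR-296-3p had 7862 CPM in K566A and 4121 CPM in R792A_C793A (0.93).

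The U-first miRNAs differed with base composition. The 75 of low G+C content (limits at 45.5% and 54.5%) had 41 higher and 7 lower, with a median log2 ratio of 1.19. The 29 of middle content had 14 higher and 5 lower, with a median of 0.98, and the 30 of high content had 7 higher and 14 lower, with a median of -1.03. Among the last were miR-149-5p, miR-744-5p and miR-92b-3p. The A-first miRNAs had medians of 0.28 (34 miRNAs, low), -0.01 (30, middle) and 1.39 (23, high). The C-first medians were 0.90, 1.63 and 1.11 from low to high. G-first medians were -0.07, -0.58 and -0.58, from 8, 11 and 6 miRNAs, all below the median of 0.88 over all tested miRNAs.

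**Figure D4:**
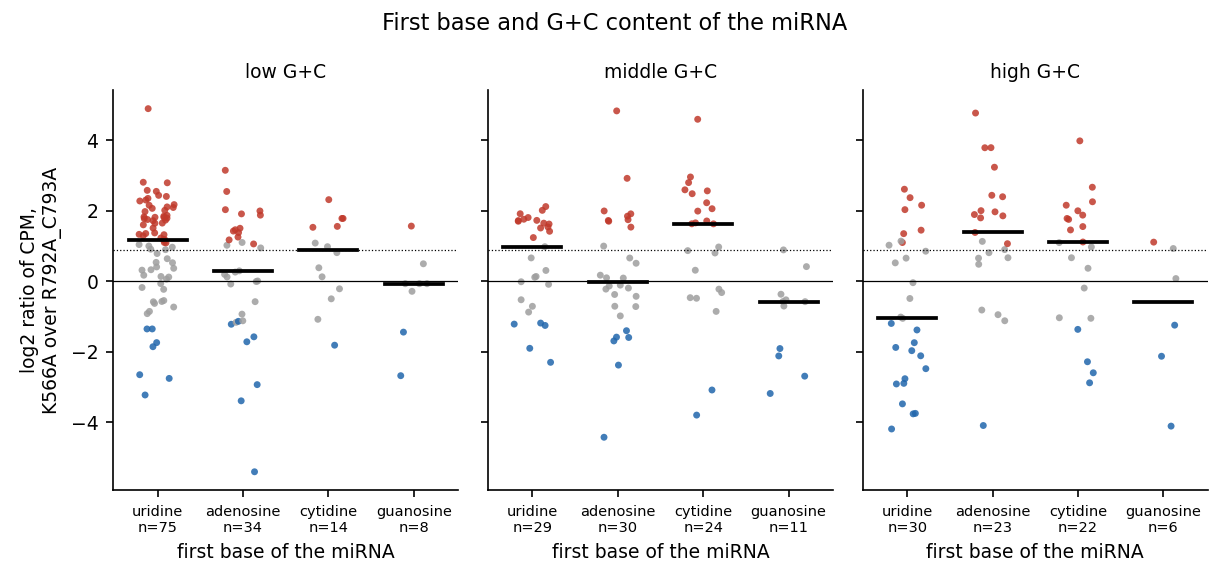
Log2 ratio of CPM, K566A over R792A_C793A, of the tested miRNAs by first base, in 3 panels of rising G+C content; black bars are medians, the dotted line is the median of all tested miRNAs (0.88) and colours mark the calls (red higher, blue lower, grey neither). The uridine medians are 1.19 in the low panel and -1.03 in the high panel.

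By arm, the 192 tested 5p names had 79 higher and 35 lower, with a median log2 ratio of 0.66, and the 174 tested 3p names 79 and 28, with 0.98. By length, the 11 miRNAs of 24 nt had 3 higher and 5 lower (median -0.87), against medians of 0.98 for 41 of 21 nt, 0.64 for 187 of 22 nt and 1.09 for 60 of 23 nt.

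Arm use was compared in 366 hairpins with at least 100 counts over both libraries. The minor-arm share was higher in K566A in 72 (19.7%) and lower in 64 (17.5%), or 37.2% in either direction, and log2(minor/major) changed by a median of 0.09 (quartiles -1.28 and 1.57). The major arm differed between the libraries in 31 hairpins, of which 27 were called. The major arm was set by the counts summed over both libraries, so the deeper R792A_C793A library weighed more in that choice. The median change turned negative with R792A_C793A thinned to the K566A total. By the 5p share, which does not depend on the major arm, 76 hairpins were called lower in K566A and 60 higher. Hairpins thus moved in both directions.

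The largest losses of a minor arm were in miR-145, miR-455, miR-676, miR-126 and miR-411. For miR-145, known from smooth muscle and fibroblasts, the 5p arm had 2 counts beside 1811 of 3p in K566A (0.110%) and 513 counts beside 633 in R792A_C793A (44.8%). For miR-455 the 3p arm had 40 counts beside 2377 of 5p in K566A, and 172 beside 299 in R792A_C793A. For miR-676 the 5p arm made up 3.06% in K566A and 44.3% in R792A_C793A. miR-126, an endothelial hairpin, had 0.540% of its counts on the 5p arm in K566A and 9.85% in R792A_C793A.

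The largest gains were in miR-744, miR-3072, miR-344d-2, miR-30c-1 and miR-3077. For miR-744 (chromosome 11, 65548244 to 65548322) the 3p arm had 798 counts beside 9035 of 5p in K566A and 535 beside 255603 in R792A_C793A, a log2 odds ratio of 5.40 (5.24 to 5.56). For miR-3072 the 5p arm made up 78.3% in K566A and 10.8% in R792A_C793A. For miR-30c-1 the 5p arm made up 45.9% in K566A and 94.2% in R792A_C793A, but that arm is shared with miR-30c-2. For miR-3077 the 5p arm had 6 counts beside 8 of 3p in K566A and 0 beside 254 in R792A_C793A, and the exact 95% lower limit of the log2 odds ratio was 4.89. miR-344d-2 rests on 32 counts in K566A and also shares an arm.

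Some well-counted hairpins changed their major arm, here chosen after their values were seen. In miR-708 the 5p arm made up 75.4% in K566A and 40.03% in R792A_C793A, and in miR-196a-1, whose 5p arm is shared with another locus, 65.7% in K566A and 25.1% in R792A_C793A. The neighbours miR-200a and miR-200b went opposite ways. The 5p arm of miR-200a made up 62.1% in K566A and 42.9% in R792A_C793A, and that of miR-200b 42.9% in K566A and 62.0% in R792A_C793A. miR-323 came close to even in K566A, with 48.7% on its 5p arm, against 10.7% in R792A_C793A.

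Arms that begin with different bases were compared within their hairpin, where library scaling cancels unless an arm is at or near 0 counts. There the pseudocount lets library depth enter the change. In miR-103-1 the G-first 5p arm had 0 counts in both libraries, beside 23996 of 3p in K566A and 98868 in R792A_C793A. Its log2(5p/3p) still changed by 2.04, against the A-first 3p arm. C-first arms gained on G-first arms in K566A in 10 of 14 hairpins, with a median change of 1.10 log2 units, and A-first arms on G-first arms in 12 of 19, with a median of 1.19. The quartiles were wide, from 0.00 to 3.17 and from -0.91 to 2.79. For U-first against G-first arms the median was -0.24 in 32 hairpins. Because depth enters where an arm is near 0, that median cannot show whether the low place of G-first miRNAs holds within hairpins. The other pairs had medians of 0.28 (C over U, 59 hairpins), 0.19 (A over U, 57) and -0.09 (C over A, 31).

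Among the abundant hairpins with different first bases, miR-183 (U on 5p, G on 3p) had 99.5% of its counts on the 5p arm in K566A and 99.9% in R792A_C793A. Its G-first 3p arm made up 0.456% in K566A and 0.127% in R792A_C793A, a called rise (log2 odds ratio 1.85). In miR-674 the G-first 5p arm made up 2.42% in K566A and 0.419% in R792A_C793A, beside a C-first 3p arm. This rise was called too (log2 odds ratio 2.56). In miR-409 the A-first 5p arm made up 7.501% in K566A and 1.23% in R792A_C793A, beside a G-first 3p arm. In miR-148a the A-first 5p arm made up 3.13% in K566A and 7.05% in R792A_C793A, beside a U-first 3p arm. miR-191, with C on 5p and G on 3p, had 99.9% on the 5p arm in both libraries.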

How the data were processed

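The deposited table holds counts for 1078 mature miRNA loci, which the authors did not normalize, judged from the whole numbers in the file. Per the labels' protocols, RNA from anti-Flag precipitates went into NEBNext small RNA libraries for Illumina sequencing. The submitters' processing notes name the tools CASAVA 1.8.2 and TopHat2 2.0.9 and the genome build mm9. The counting program, the miRNA release, strand use and the handling of reads that match several loci are points not given in the sources used here.

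Each mature name was counted once, by its highest locus, which gave 959 names. Of 64 names with several loci and counts, 55 had loci equal within 1% or 3 counts. Counts per 1000000 (CPM) used the total of these counts as library size. Ratios carry exact conditional 95% intervals. Hairpins pair a 5p and a 3p name with starts within 150 nt and at least 100 counts over both libraries. The interval of a hairpin's odds ratio is exact, or Woolf's where all 4 counts reached 500. Log2 changes in arm ratios used a pseudocount of 0.5. With 1 library per group edgeR 4.0.16 gave only TMM factors and no test. The other steps used Python 3.11.15, numpy 2.4.6, scipy 1.17.1, pandas 2.3.3 and matplotlib 3.10.9, and were tested on simulated data.

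Mature sequences came from a RefSeq table of build GRCm38.p6, matched for 789 names (755 by name, 34 by gene synonym). The first base was read for 779 names, those whose reference length equals the locus length. Positions are mm9, as deposited.

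The members, the lists and the rule for naming miRNAs were chosen with earlier results of these data known. Named are the 10 largest called rises and 10 largest called falls among miRNAs averaging 100 CPM or more, the 10 most abundant, a list's extremes and at most 4 of its abundant members, the 5 hairpins changed most in each direction (ranked by the interval limit nearest 0), and up to 4 hairpins per pair of first bases. Others fall outside this rule and were named with their values known, among them miR-99a-5p, miR-100-5p, miR-30b-3p, miR-290-5p and miR-291a-3p. The sequences printed were also picked with the values known. The alternatives tried were other scalings, filters, ways of counting loci, a thinned R792A_C793A library, pseudocounts and sets of hairpins. The grouping by end bases and the limit of 3 counts per arm were added after the values were seen.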

Additional observations from a re-analysis of the deposited data

How the results depend on the processing

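Scaling decided how many miRNAs were called. With TMM, median-of-ratios and totals without miR-292-5p, 94, 98 and 58 miRNAs were higher in K566A and 96, 96 and 111 lower, against 158 and 63 with the full total, and the median log2 ratio was 0.25, 0.29 and 0.0084 against 0.88. With a mean of at least 100 CPM, 86 were higher and 28 lower, with fewer miRNAs tested, and the C-first median became -0.67 relative to that of all; the cause was not tested. With no filter on low counts 115 were lower and the median was 0.23. The median change of the minor-to-major ratio, 0.09 on the log2 scale, became -0.37 with R792A_C793A thinned to the K566A total. Of the alternative values of named miRNAs 816 kept their direction and call, 60 lost the call and 36 gained one, all of these 96 under other scalings. Of those of named hairpins 268 kept both, and miR-291b lost its call, at -1.03, with R792A_C793A thinned. No paired analysis was possible because each group has 1 library. The K566A depth sets the lowest share that could be read, 3 counts or 0.201 CPM.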

Other observations

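G and C among the first 4 bases of both arms were counted in 279 hairpins, a grouping chosen after the values were seen. The arm with more G or C gained on the other in K566A in 116 of 198 hairpins and lost in 82, with a median change of 0.40 log2 units (quartiles -1.18 and 2.01), or 0.19 with R792A_C793A thinned to the K566A total. Where the 5p arm had at least 2 fewer, log2(5p/3p) was lower in K566A in 20 of 26 hairpins, by a median of -0.91. Where it had at least 2 more, it was higher in 16 of 28, with a median of 0.31.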
